A study of Rattus with 18 samples.

Results

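DNA replication machinery genes were followed in glomeruli of rats with anti-Thy1 nephritis over 5 days. They were a list of 43 genes that license, unwind, copy and repackage DNA, taken by gene symbol from the probe names of the array. Of the 43, 42 had a probe (Gins1 had none by that rule) and 41 were tested, among 23186 genes and transcripts that passed the same filter. Uhrf1 failed the filter, as its probe was well above background on 6 of 18 arrays. The study used Sprague-Dawley rats (strain label SD) of 200 g, of which 30 were injected with anti-Thy1 antibody and 6 with saline. Thy1 sits on the surface of mesangial cells in the rat. Glomerular RNA was hybridised to single-colour Agilent arrays, with 3 arrays on each of 6 time points: day 0, the saline controls, and days 1, 2, 3, 4 and 5 after the antibody. Each time point drew on 6 rats and 3 glomeruli from every rat, per the series' design text. Rats are not tied to arrays in the labels. The p-values therefore reflect only how far arrays of the same day differ, part of which may be technical. That spread was pooled over the 6 days in 1 fit, so days with wide arrays also set the p-values of days with close ones.

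Before a cell divides, origin recognition proteins, Cdc6 and Cdt1 load the ring-shaped MCM helicase onto DNA, a step called licensing. Cdc45 and the GINS complex then switch the helicase on, polymerases copy both strands behind it, and PCNA, a sliding clamp loaded by replication factor C, holds the polymerases on their template. In this model the antibody destroys mesangial cells and the surviving ones then proliferate, while macrophages enter the glomerulus.

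All values below are log2 levels, where 0 is the 75th percentile of the processed intensities on that array, so levels are comparable between arrays for the same probe and not between probes. A gene was called when limma's Benjamini-Hochberg adjusted p over all 23186 genes was under 0.05, and a log2 change is given ± its standard error (SE) with 3 arrays a day. Where no array of day 0 had a probe well above background, the fold is a bound, written "at least". The bound sets the mean of the antibody arrays against the lowest signal well above background on each control array. Where the probe's own signal was higher, that was used. Bounds hold for this processing alone, as alternative settings gave smaller changes for these genes. The adjusted p beside a bound comes from limma on the probe's own control signals, and so belongs to a larger difference than the bound.

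Sequences are shown for the probes on which the results turn. The first 3 belong to genes that were not well above background on any control array, and the next 4 to genes whose probes disagreed or did not rise. Positions are those of the array files, on build rn4: chr10:87690604-87691212 (+) for Cdc6, chr19:13992982-13993041 (+) for Mcm5, chr19:50918540-50918875 (-) for Gins2, chrX:80810007-80810066 (-) for Pola1, chr1:159936096-159937814 (+) for the second Rrm1 probe and chr1:159935130-159936070 (+) for the third. The first Rrm1 probe has no position in the files. A span wider than the 60-base probe means that the probe is split over the genome.
Cdc6: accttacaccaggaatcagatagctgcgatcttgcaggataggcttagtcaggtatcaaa
Mcm5: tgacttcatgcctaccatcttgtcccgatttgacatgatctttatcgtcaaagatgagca
Gins2: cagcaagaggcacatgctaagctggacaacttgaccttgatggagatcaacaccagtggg
Pola1, probe used: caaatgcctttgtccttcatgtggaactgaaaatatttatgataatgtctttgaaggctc
Rrm1, probe used: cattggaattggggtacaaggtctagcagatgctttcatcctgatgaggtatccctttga
Rrm1, the second probe: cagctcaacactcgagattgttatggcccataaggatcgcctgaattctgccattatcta
Rrm1, the third probe: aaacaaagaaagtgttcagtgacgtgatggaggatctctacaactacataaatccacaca

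Most of the replication genes rose within 1 day of the antibody, though Pola1, Gins3 and Rrm2 did not. The members' median was highest on days 2 and 3 and lower on days 4 and 5. With normexp background correction no member was called on day 1, as given below with the count over all genes. Against day 0, 30 of 41 rose on day 1 (19.2% of all genes tested rose), 36 on day 2 (20.8%), 38 on day 3 (21.7%), 24 on day 4 (25.6%) and 22 on day 5 (20.9%). No member was called lower on any day, where 20.7%, 25.1%, 26%, 26.7% and 23.4% of all genes fell on days 1 to 5, and none was lower at an unadjusted limma p under 0.05. The members' median log2 change was 1.30, 1.57, 1.68, 0.97 and 1.04 on days 1 to 5, beside medians of 0.06, 0.05, -0.02, 0.05 and 0.06 over all genes tested. With the 4 members that were not above background on any control array set at their bound, it was 1.30, 1.57, 1.68, 0.94 and 0.88. The size depended on the processing. Scaled to 12 reference genes, the members' median was 0.85, 1.14, 1.23, 0.37 and 0.62, beside -0.39, -0.39, -0.47, -0.54 and -0.36 over all genes. With normexp background correction it was 0.75, 0.80, 0.91, 0.31 and 0.51, beside 0.16, -0.17, -0.16, -0.19 and 0.19 over all genes. All 3 arrays lay above all 3 control arrays for 36 of 41 members on day 1 (27.5% of all genes), 38 on day 2 (28%), 40 on day 3 (26.2%), 20 on day 4 (28.8%) and 29 on day 5 (24.9%). The filter kept probes well above background on all 3 arrays of at least 1 day, and 10 of the 41 members passed it through antibody days alone, so that these had to be higher there. Among the 31 members above background on all 18 arrays, 24, 27, 29, 20 and 20 rose on days 1 to 5 when the fit was limited to such genes. That fit called 7215, 8033, 8447, 9554 and 8181 genes on days 1 to 5, in either direction. The number of genes it held is not given here, so these counts are no shares. The 5 comparisons share the 3 control arrays. Over the 6 days, limma's F-test called 35 of 41 members (53.1% of all genes).

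**Figure D1:**
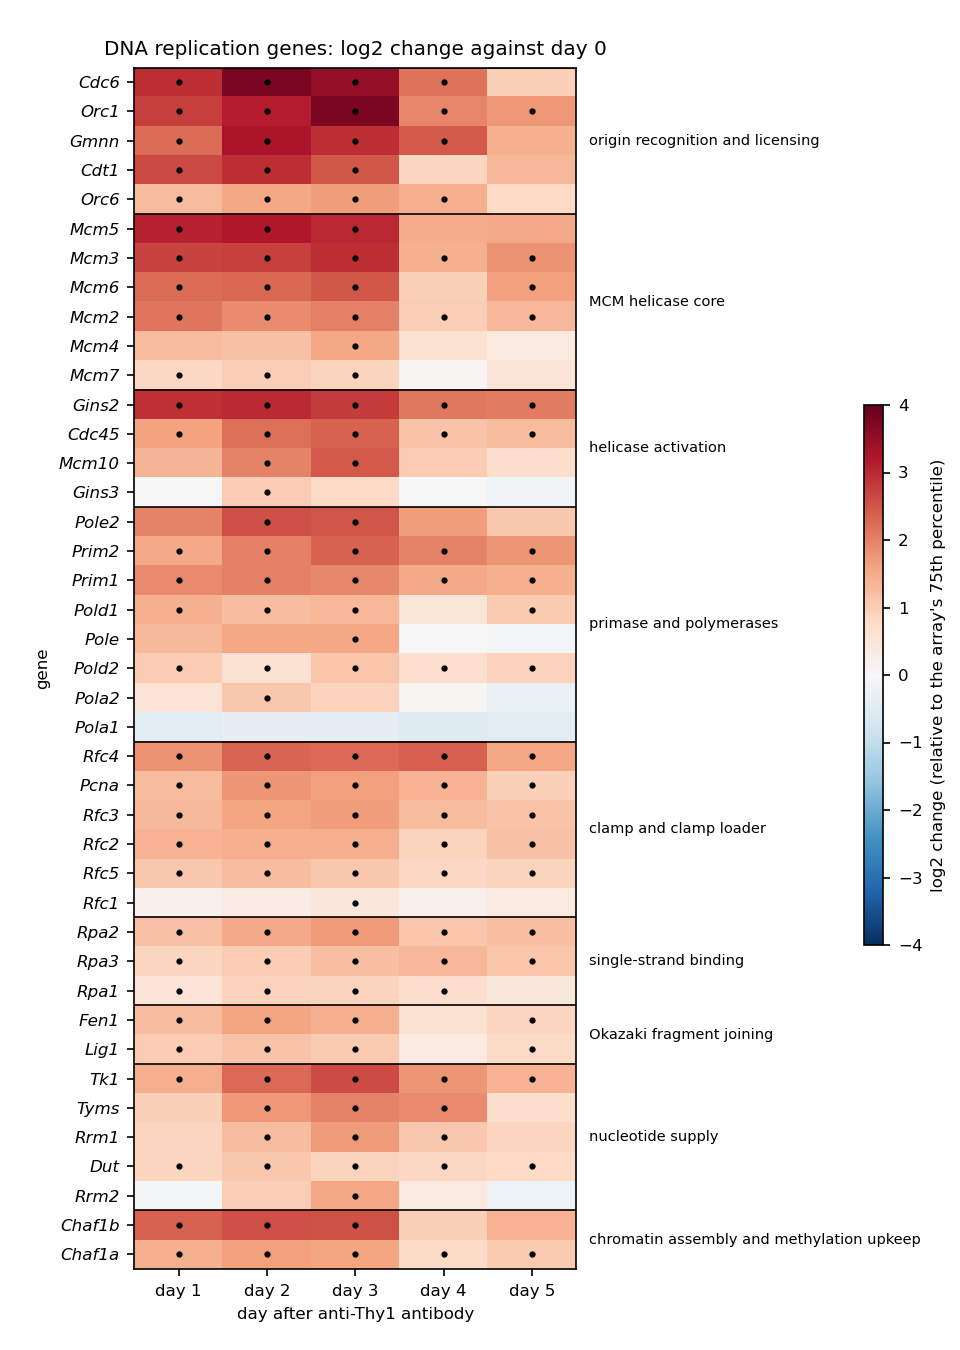
Mean log2 change against day 0 of the 41 replication genes tested (rows, grouped by role) on days 1 to 5 (columns); red is higher than day 0, blue lower, and a black dot marks an adjusted p under 0.05. Most cells of days 1 to 3 are red and dotted, and Pola1 is pale blue on every day. Cdc6, Cdt1, Mcm5 and Gins2 were not above background on any control array, so their shades against day 0 are no measured folds.

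Of the 41 members, 18 were called higher on all 5 days, 8 on 4 days, 6 on 3 days, 2 on 2 days, 6 on 1 day and 1, Pola1, on none. Day 2 held the highest mean of 19 members and day 3 that of 17. The lowest mean of 36 members was that of day 0. Shares of all genes were not computed for these counts. All 5 comparisons share the 3 control arrays, so calls on several days are not independent. The 18 include Gins2, which was not above background on any control array, and Orc1, which was above it on 1 of 3.

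Arrays of the later days stood apart from one another. The members' median difference from the control mean was 1.32, 1.38 and 1.37 on the day 1 arrays, 1.99, 1.66 and 1.22 on day 2, and 2.00, 1.69 and 1.41 on day 3. On day 4 it was 0.18 on replicate 1 against 1.53 and 1.64 on replicates 2 and 3, and on day 5 it was 0.42, 0.95 and 1.83 on replicates 2, 4 and 5. Day 4 replicate 1 and day 5 replicate 2 were thus low, with 20 and 30 of 41 members above the highest control array. Without day 4 replicate 1, 33 members were called on day 4 and their median change was 1.53 in place of 0.97, and without day 4 replicate 3, 15 were. On day 5, 9 members were called without day 5 replicate 5 and 10 without day 0 replicate 4, and on day 1, 19 were called without day 0 replicate 4. Leaving out that control array ended 39 of the 150 calls against day 0, among them those of Cdc45, Pcna and Tk1 on day 1 and of Orc1 and Pcna on day 5. Without it 4602 of all genes were called on day 1 and 6522 on day 5, in place of 9265 and 10263, in either direction. All-gene counts against day 0 without the other arrays are not given here.

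**Figure D2:**
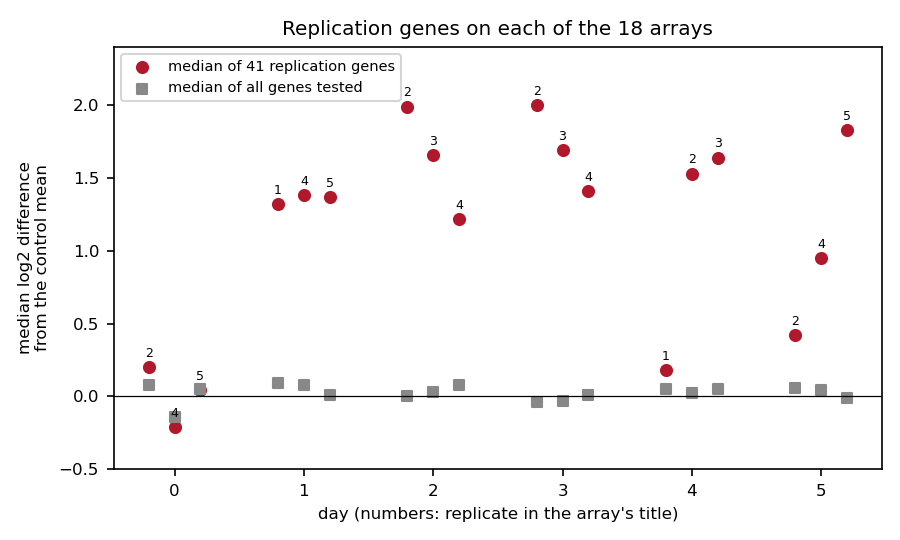
Median log2 difference from the control mean (y) on each array by day (x), over the 41 replication genes (red circles, with the replicate number of the array) and over all genes tested (grey squares). All arrays of days 1 to 3 lie between 1.22 and 2.00, while day 4 replicate 1 is at 0.18 and day 5 runs from 0.42 to 1.83.

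Other markers moved on the same arrays. The levels of 9 macrophage markers, all 9 above background on every array, were summed on the linear scale, where the brightest probes weigh most. The log2 of that sum spanned 4.91 to 5.76 on day 0, 7.32 to 7.78 on day 1 and 7.15 to 7.90 on day 2. It spanned 8.21 to 8.50 on day 3, 5.10 to 7.36 on day 4 and 5.38 to 7.83 on day 5. It was lowest within its day on day 4 replicate 1, at 5.10, and highest on day 5 replicate 5, at 7.83. The same held for lymphocyte and NK cell markers, at 1.85 and 4.07, and for mesangial markers, at 3.25 and 4.40. Tubule markers, at 9.71 and 9.21, and podocyte markers, at 8.47 and 8.48, were instead highest and lowest there. Endothelial markers were lowest on day 4 replicate 1, at 5.94, and not highest on day 5 replicate 5, at 7.06. Of the 9 macrophage markers, 6, 8, 8, 4 and 1 rose on days 1 to 5. Of 8 lymphocyte and NK cell markers, 2, 6, 7, 0 and 1 rose. Of 8 mesangial markers 6 fell on day 1, Thy1 among them with a log2 change of -3.25 ± 0.59 (adjusted p = 0.0026), and 2, 1, 1 and 1 fell on days 2 to 5, while 1 rose on each of days 1, 4 and 5. Of 8 markers of glomerular endothelium, 4, 3, 3, 5 and 4 fell on days 1 to 5 and 1 rose on day 3. Of 8 podocyte markers, 2, 2, 2, 3 and 3 fell and 2 rose on day 5, with Synpo and Lmx1b lower on all 5 days. The podocyte markers, which define glomerular tissue, were all above background on all 18 arrays, and so were the 8 tubule markers. The part of these cell types in the replication values was not tested. In whole glomeruli, fewer cells of a type and less RNA per cell cannot be told apart.

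The arrays also differed in handling. The controls had the lowest 75th percentiles, 180.7 to 229.2 intensity units against 251.9 to 452.4 on the antibody arrays, and the part of this difference was not tested. All 3 controls lay on slide 1 with day 1 replicate 1, on which 38 of 41 members were above the control mean, with a median log2 difference of 1.32. With slide as a fixed term, which leaves that 1 array to link the controls to days 1, 3 and 5, no member was called on those 3 days, and 0, 1 and 1 of all 23186 genes were. The members' median change in that fit was 1.32, 1.77 and 1.48. With normexp, 0, 14, 16, 7 and 0 members were called on days 1 to 5, where 29, 1487, 1550, 2613 and 55 of 23186 genes were. The members' counts were 20, 29, 32, 22 and 15 when the local background of a few very bright surroundings was capped, a setting chosen after seeing the data. Counts over all genes in that setting are not given here, so these are no shares. Scaled to the reference genes in place of the 75th percentile, 9 members were called on day 4 and 12 on day 5. In that fit 12850 and 10116 of 23186 genes were called on these days, in either direction. Days 2 and 4 were scanned on a second scan day without controls, so scan day and these days cannot be told apart.

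The licensing genes rose on the first 3 days. All 5 tested (Orc1, Orc6, Cdc6, Cdt1 and Gmnn) were called on days 1, 2 and 3, with median log2 changes of 2.10, 2.81 and 2.57 with Cdc6 and Cdt1 set at their bounds. On day 4, 4 were called, Cdt1 being the exception, and on day 5 Orc1 alone was. Cdc6, the ATPase that helps to load the helicase, had levels of -5.13, -5.02 and -6.64 on day 0, -2.66, -2.47 and -2.77 on day 1, -1.19, -1.90 and -2.39 on day 2, -1.48, -2.22 and -2.49 on day 3, -5.0, -2.59 and -2.64 on day 4, and -6.81, -4.76 and -2.37 on day 5. Every array of days 1 to 3 was far above the controls, while 1 array of day 4 and 2 of day 5 were near them, and none of the 3 controls was above background. Cdc6 was at least 4.01-fold higher on day 1 (adjusted p = 0.016), at least 7.02-fold on day 2 (0.0036), at least 5.95-fold on day 3 (0.0045) and at least 2.34-fold on day 4 (0.046). With normexp, the day 4 change of Cdc6 was -0.02, so that its direction depended on the background correction. On days 1 to 3 its log2 change went as low as 0.33, 0.62 and 0.57 under the alternative settings. Its day 1 call ended without day 0 replicate 5 or day 1 replicate 4, and its day 4 call ended without any of 15 of the 18 arrays, among them day 0 replicate 4.

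Orc6, a subunit of the origin recognition complex, had levels of -3.97, -3.85 and -3.92 on day 0, -2.59, -2.41 and -2.89 on day 1, -2.13, -2.24 and -2.69 on day 2, -1.69, -2.03 and -2.99 on day 3, -3.19, -2.08 and -2.15 on day 4, and -3.70, -3.41 and -2.23 on day 5. No antibody array overlapped the controls, which lay close together. The log2 change was 1.68 ± 0.39 on day 3 (adjusted p = 0.0033) and 0.80 ± 0.39 on day 5 (adjusted p = 0.11). Orc1, the largest subunit of that complex, changed by 3.75 ± 0.64 on day 3 (adjusted p = 0.00072) and 1.72 ± 0.64 on day 5 (adjusted p = 0.041). Its probe was not well above background on day 0 replicates 2 and 4, so these changes rest partly on controls at background. Under the alternative settings they went as low as 1.17 and 0.22, and the day 5 call ended without any 1 of 8 arrays. Gmnn, which encodes geminin, the inhibitor of Cdt1, rose alongside it, by 3.26 ± 0.63 on day 2 (adjusted p = 0.0015). Cdt1 itself was at least 5.33-fold higher on day 2 (adjusted p = 0.0014), and under the alternative settings its log2 change that day went as low as 0.34.

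**Figure D3:**
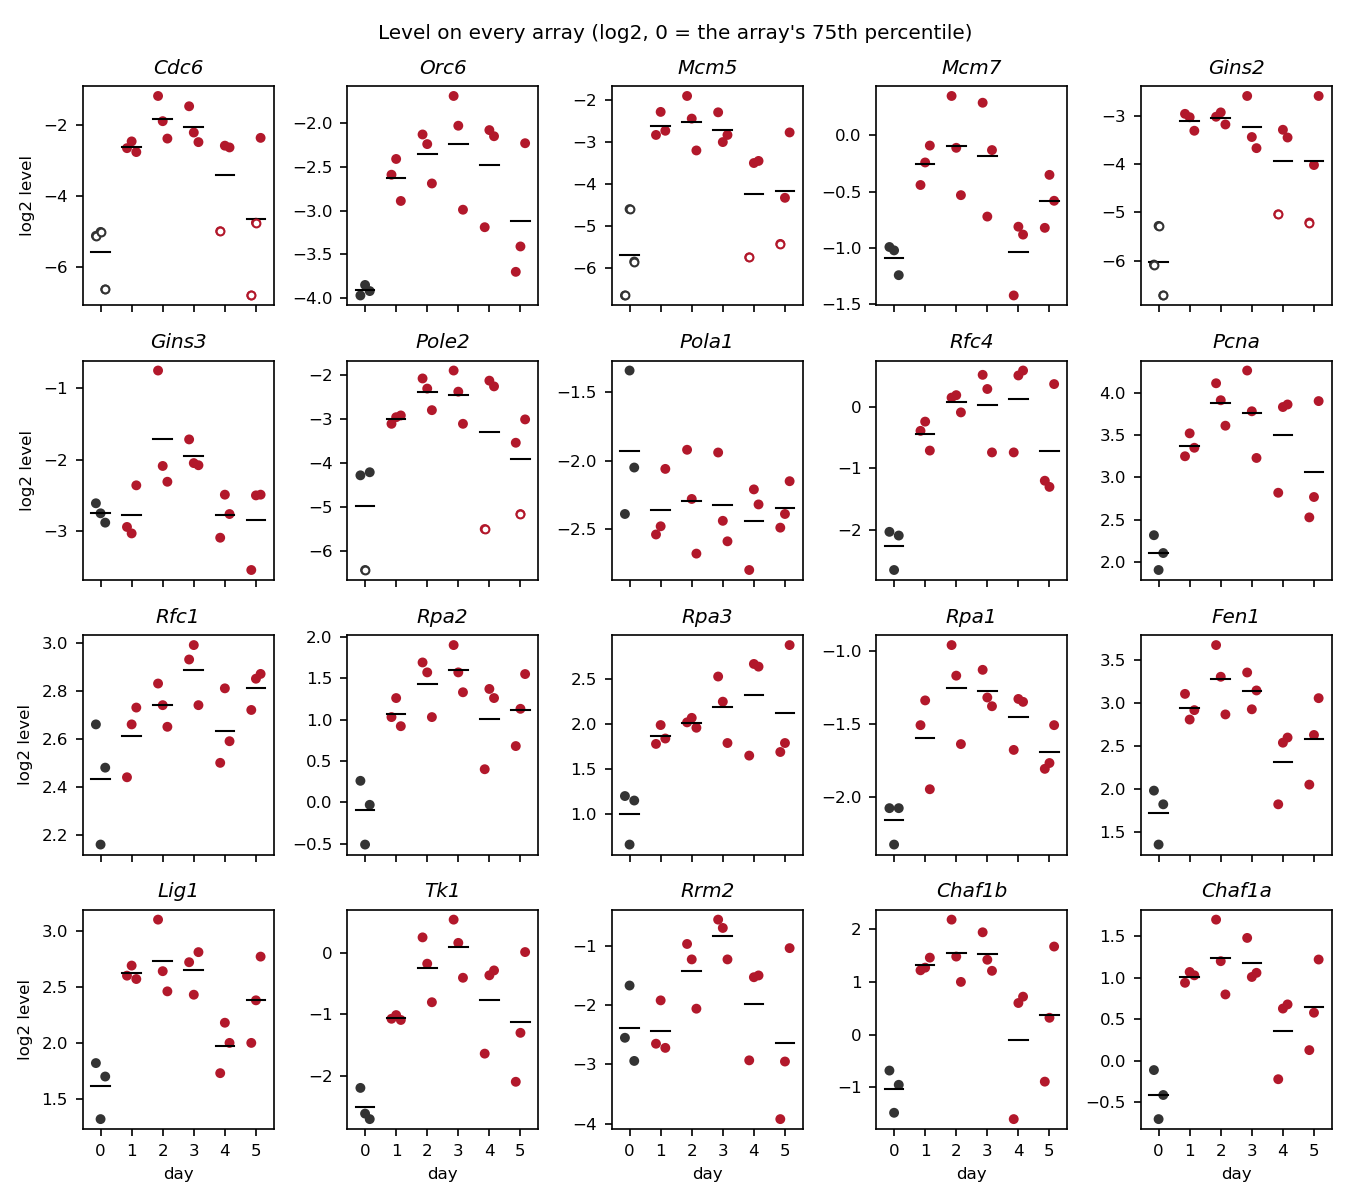
Log2 level (y, 0 is the array's 75th percentile) on every array by day (x) for the 20 replication genes described in full; black points are saline controls, red points antibody arrays, open points were not well above background, and the bar is the day mean. In the Tk1 panel the day 1 points lie between -1.09 and -1.01, while the day 5 points run from -2.10 to 0.02.

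The 6 MCM subunits form the ring of the helicase. Of these 5 rose on day 1, 5 on day 2, 6 on day 3, 2 on day 4 and 3 on day 5. The medians were 2.08, 2.00, 1.98, 0.78 and 0.92 with Mcm5 set at its bound. Mcm4 was called on day 3 alone, a call that ended in 17 of 30 alternative settings, 10 of which left out 1 array. Mcm5 had levels of -6.66, -4.60 and -5.85 on day 0, -2.83, -2.28 and -2.73 on day 1, -1.90, -2.44 and -3.20 on day 2, -2.29, -3.0 and -2.83 on day 3, -5.75, -3.50 and -3.45 on day 4, and -5.43, -4.33 and -2.77 on day 5. The arrays of days 1 to 3 did not overlap the controls, which were not above background, and 1 array of each later day lay among them. Mcm5 was at least 4.05-fold higher on day 1 (adjusted p = 0.0053), at least 4.34-fold on day 2 (0.0027) and at least 3.80-fold on day 3 (0.0031). Under the alternative settings its log2 change went as low as 0.34, 0.16 and 0.17 on these days.

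Mcm7 changed least of the ring. Its levels were -0.99, -1.02 and -1.24 on day 0, -0.44, -0.24 and -0.09 on day 1, 0.35, -0.11 and -0.53 on day 2, 0.29, -0.72 and -0.13 on day 3, -1.42, -0.81 and -0.88 on day 4, and -0.82, -0.35 and -0.58 on day 5. Days 1, 2, 3 and 5 did not overlap the controls and day 4 did. The log2 change was 0.99 ± 0.26 on day 2 (adjusted p = 0.008) and 0.05 ± 0.26 on day 4 (adjusted p = 0.89). Mcm3 and Mcm6 changed by 2.94 ± 0.52 and 2.48 ± 0.44 on day 3 (adjusted p = 0.00083 and 0.00088). Mcm2 and Mcm4 had 2 probes each: the brighter gave 2.15 and 1.28 on day 1, the dimmer 0.91 and 0.76, and on day 4 the dimmer gave -0.12 and -0.13 where the brighter gave 0.97 and 0.61.

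Of the 4 helicase-activating genes tested, 2 rose on day 1, 4 on day 2, 3 on day 3, and 2 on each of days 4 and 5. Gins2, a subunit of the GINS complex, had levels of -6.08, -5.28 and -6.72 on day 0, -2.96, -3.03 and -3.31 on day 1, -3.02, -2.93 and -3.18 on day 2, -2.59, -3.44 and -3.67 on day 3, -5.04, -3.29 and -3.45 on day 4, and -5.21, -4.02 and -2.59 on day 5. All 15 antibody arrays exceeded the controls, though 1 array on each of days 4 and 5 did so narrowly and, like the controls, was not above background. It was at least 2.90-fold higher on day 1 (adjusted p = 0.0033) and at least 3.01-fold on day 2 (0.0015). The direction depended on the background correction: with normexp, the log2 change of Gins2 was -0.11 on day 2 and -0.34 on day 4. On day 1 its lowest log2 change under the alternative settings was 0.13.

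Gins3 is another GINS subunit. Its levels were -2.61, -2.75 and -2.88 on day 0, -2.94, -3.03 and -2.36 on day 1, -0.76, -2.09 and -2.31 on day 2, -1.72, -2.05 and -2.08 on day 3, -3.09, -2.49 and -2.76 on day 4, and -3.54, -2.50 and -2.49 on day 5. Days 2 and 3 lay above the controls and days 1, 4 and 5 overlapped them. The only call was on day 2, with a log2 change of 1.03 ± 0.36 (adjusted p = 0.031), and it ended without day 2 replicate 2, day 0 replicate 4 or day 0 replicate 5. Cdc45, which joins GINS on the helicase, changed by 1.62 ± 0.46 on day 1 and 2.37 ± 0.46 on day 3 (adjusted p = 0.014 and 0.0012). Mcm10, which helps to start unwinding, changed by 2.45 ± 0.62 on day 3 (adjusted p = 0.0052).

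Of the 8 primase and polymerase genes, 4, 6, 6, 3 and 4 rose on days 1 to 5. Pole was called on day 3 alone, a call that ended without any 1 of 13 arrays. Both primase subunits, Prim1 and Prim2, which make the RNA primers, were called on every day, with log2 changes of 1.93 ± 0.36 and 2.36 ± 0.49 on day 3 (adjusted p = 0.0011 and 0.0018). Pold2, the second subunit of polymerase delta, was also called every day, at 1.11 ± 0.17 on day 3 (adjusted p = 0.00055), and Pold1, its catalytic subunit, on every day but day 4. Pole2, a subunit of the leading-strand polymerase epsilon, had levels of -4.28, -6.43 and -4.21 on day 0, -3.11, -2.96 and -2.92 on day 1, -2.08, -2.31 and -2.80 on day 2, -1.90, -2.38 and -3.11 on day 3, -5.50, -2.13 and -2.26 on day 4, and -3.54, -5.16 and -3.01 on day 5. Day 0 replicate 4 was the lowest array and not above background. The log2 change of Pole2 was 2.58 ± 0.80 on day 2 and 2.51 ± 0.80 on day 3 (adjusted p = 0.017 and 0.018), and both calls ended without day 0 replicate 4.

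Pola1, the catalytic subunit of polymerase alpha, was the 1 member with its highest mean on day 0. The probe used, printed above, had levels of -2.39, -1.34 and -2.05 on day 0, -2.54, -2.48 and -2.06 on day 1, -1.92, -2.28 and -2.68 on day 2, -1.94, -2.44 and -2.59 on day 3, -2.80, -2.21 and -2.32 on day 4, and -2.49, -2.39 and -2.15 on day 5. The antibody arrays overlapped the controls on every day, with log2 changes between -0.51 and -0.37 and no call. A second, dimmer probe at chrX:80651404-80651463 (-) had levels of -4.58, -3.95 and -4.79 on day 0, -2.99, -3.04 and -3.90 on day 1, and -2.29, -3.43 and -3.86 on day 3, with log2 changes from 1.13 to 1.29 over the 5 days. This second probe was not well above background on day 0 replicates 2 and 5, so its changes rest partly on controls at background. The direction of Pola1 therefore depended on the probe. Its partner Pola2 was called on day 2 alone, at 1.07 ± 0.40 (adjusted p = 0.041). That call ended without any 1 of 6 arrays, day 0 replicate 2 among them, and with normexp the change was -0.41.

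**Figure D4:**
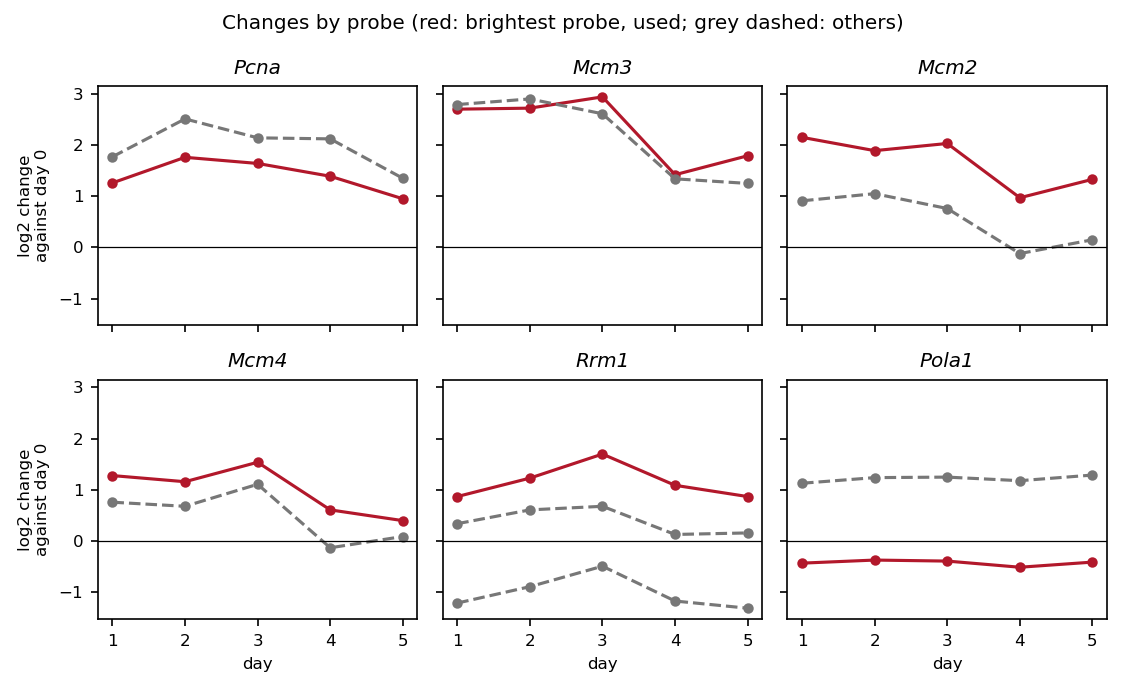
Log2 change against day 0 (y) by day (x) for each probe that passed the filter, for 6 members with more than 1 probe; red solid lines are the brightest probe, used for all other values, and grey dashed lines the others. The probes of Pcna and Mcm3 lie on 1 side of 0, while those of Rrm1 and Pola1 lie on both sides on every day.

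The clamp and its loader rose on all 5 days. Of 6 genes, 5, 5, 6, 5 and 5 were called on days 1 to 5, Rfc1 being called on day 3 alone. Pcna had levels of 2.32, 1.91 and 2.11 on day 0, 3.25, 3.52 and 3.35 on day 1, 4.11, 3.91 and 3.61 on day 2, 4.26, 3.78 and 3.23 on day 3, 2.82, 3.83 and 3.86 on day 4, and 2.53, 2.77 and 3.90 on day 5. None of the 15 antibody arrays overlapped the controls. It was 2.4-fold higher on day 1 (adjusted p = 0.013), 3.40-fold on day 2 (0.0018), 3.12-fold on day 3 (0.0021), 2.62-fold on day 4 (0.0046) and 1.93-fold on day 5 (0.04).

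Rfc4, a small subunit of the loader, had levels of -2.03, -2.65 and -2.09 on day 0, -0.39, -0.24 and -0.71 on day 1, 0.15, 0.19 and -0.09 on day 2, 0.52, 0.29 and -0.74 on day 3, -0.74, 0.51 and 0.59 on day 4, and -1.20, -1.30 and 0.37 on day 5. All antibody arrays were above all controls, and Rfc4 had its highest mean on day 4, with a log2 change of 2.38 ± 0.44 (adjusted p = 0.00073). The other small subunits, Rfc2, Rfc3 and Rfc5, changed by 1.45 ± 0.21, 1.68 ± 0.34 and 1.09 ± 0.24 on day 3. Rfc1, the large subunit, had levels of 2.66, 2.16 and 2.48 on day 0, 2.44, 2.66 and 2.73 on day 1, 2.83, 2.74 and 2.65 on day 2, 2.93, 2.99 and 2.74 on day 3, 2.50, 2.81 and 2.59 on day 4, and 2.72, 2.85 and 2.87 on day 5. Its days lay close together, and the 1 call was for 0.45 ± 0.15 on day 3 (adjusted p = 0.024), which ended without day 0 replicate 4, day 3 replicate 2 or day 3 replicate 3. The second Rfc1 probe gave 0.15 on day 3 and -0.19 on days 1 and 5.

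Replication protein A, which coats single-stranded DNA, is made of Rpa1, Rpa2 and Rpa3. All 3 were called on days 1 to 4, and Rpa2 and Rpa3 on day 5 as well. Rpa1 had levels of -2.08, -2.33 and -2.08 on day 0, -1.51, -1.34 and -1.95 on day 1, -0.96, -1.17 and -1.64 on day 2, -1.13, -1.32 and -1.38 on day 3, -1.68, -1.33 and -1.35 on day 4, and -1.81, -1.77 and -1.51 on day 5. Rpa2 had levels of 0.26, -0.51 and -0.03 on day 0, 1.03, 1.26 and 0.92 on day 1, 1.69, 1.57 and 1.03 on day 2, 1.90, 1.57 and 1.33 on day 3, 0.40, 1.37 and 1.26 on day 4, and 0.68, 1.13 and 1.55 on day 5. Rpa3 had levels of 1.20, 0.66 and 1.15 on day 0, 1.78, 1.99 and 1.84 on day 1, 2.02, 2.07 and 1.96 on day 2, 2.53, 2.25 and 1.79 on day 3, 1.65, 2.67 and 2.64 on day 4, and 1.69, 1.79 and 2.88 on day 5. For all 3 subunits, no antibody array of any day overlapped the controls. On day 3 the log2 changes were 0.89 ± 0.20 for Rpa1, 1.69 ± 0.29 for Rpa2 and 1.19 ± 0.32 for Rpa3 (adjusted p = 0.0027, 0.00078 and 0.0073).

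Fen1 and Lig1 trim and seal the Okazaki fragments of the lagging strand. Fen1 had levels of 1.98, 1.35 and 1.82 on day 0, 3.11, 2.81 and 2.92 on day 1, 3.68, 3.31 and 2.87 on day 2, 3.36, 2.93 and 3.15 on day 3, 1.82, 2.54 and 2.60 on day 4, and 2.05, 2.63 and 3.06 on day 5. Lig1 had levels of 1.82, 1.32 and 1.70 on day 0, 2.60, 2.69 and 2.57 on day 1, 3.1, 2.64 and 2.46 on day 2, 2.72, 2.43 and 2.81 on day 3, 1.73, 2.18 and 2.00 on day 4, and 2.00, 2.38 and 2.77 on day 5. Both overlapped the controls on day 4 through replicate 1 and on no other day. Both were called on days 1, 2, 3 and 5, with log2 changes of 1.57 ± 0.28 for Fen1 and 1.13 ± 0.22 for Lig1 on day 2 (adjusted p = 0.0012 and 0.0016).

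The nucleotide supply genes make and guard the building blocks of DNA. Of 5 genes, 2, 4, 5, 4 and 2 were called on days 1 to 5, with medians of 0.87, 1.23, 1.70, 1.09 and 0.80. On day 3 against day 1 no member of the 5 was called, with a median difference of 1.03 and a range from 0.05 (Dut) to 1.60 (Rrm2). Tk1, the thymidine kinase of the salvage route, had levels of -2.20, -2.62 and -2.71 on day 0, -1.07, -1.01 and -1.09 on day 1, 0.26, -0.17 and -0.80 on day 2, 0.55, 0.17 and -0.40 on day 3, -1.64, -0.36 and -0.28 on day 4, and -2.10, -1.30 and 0.02 on day 5. No antibody array overlapped the controls, and day 5 replicate 2 came nearest. Its log2 change was 1.45 ± 0.47 on day 1 and 2.62 ± 0.47 on day 3 (adjusted p = 0.024 and 0.00086). The files place the Tk1 probe on chromosome 3 of rn4, whereas RefSeq lists Tk1 on chromosome 10 of GRCr8.

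Rrm2, the small subunit of ribonucleotide reductase, had levels of -2.55, -1.67 and -2.94 on day 0, -2.65, -1.92 and -2.72 on day 1, -0.97, -1.23 and -2.06 on day 2, -0.56, -0.70 and -1.23 on day 3, -2.93, -1.53 and -1.50 on day 4, and -3.92, -2.95 and -1.04 on day 5. Day 1 lay among the controls and only day 3 was clear of them. The log2 change was -0.04 ± 0.60 on day 1 (adjusted p = 0.96) and 1.56 ± 0.60 on day 3 (adjusted p = 0.043), a call that ended without any 1 of 6 arrays, day 0 replicate 2 among them. Rrm1, the large subunit, was measured by the 3 probes printed above. The probe used had levels of -1.29, -1.23 and -1.51 on day 0 and 0.52, 0.26 and 0.27 on day 3, and its log2 change was 1.70 ± 0.37 on day 3 (adjusted p = 0.0022). The second probe changed by 0.68 on day 3 and the third by -0.49, and the third was lower than day 0 on every day, down to -1.31 on day 5. With the mean of the 3 probes Rrm1 was not called on day 3. Tyms, which makes thymidylate, changed by 0.95 ± 0.46 on day 1 and 1.98 ± 0.46 on day 3 (adjusted p = 0.11 and 0.0033), and Dut, which removes dUTP, by 0.80 to 1.07 with a call on every day.

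Chaf1a and Chaf1b, subunits of the chromatin assembly factor that deposits histones behind the fork, were called on days 1, 2 and 3. Chaf1a had levels of -0.11, -0.70 and -0.41 on day 0, 0.94, 1.07 and 1.03 on day 1, 1.70, 1.20 and 0.80 on day 2, 1.48, 1.01 and 1.06 on day 3, -0.22, 0.63 and 0.68 on day 4, and 0.13, 0.58 and 1.22 on day 5. Chaf1b had levels of -0.68, -1.48 and -0.95 on day 0, 1.22, 1.27 and 1.46 on day 1, 2.18, 1.48 and 1.00 on day 2, 1.94, 1.42 and 1.21 on day 3, -1.60, 0.60 and 0.72 on day 4, and -0.89, 0.32 and 1.67 on day 5. On day 4 replicate 1, Chaf1a lay among the controls and Chaf1b below all of them. On day 3 the log2 change was 1.59 ± 0.30 for Chaf1a and 2.56 ± 0.61 for Chaf1b (adjusted p = 0.0012 and 0.0037). Uhrf1, which guides upkeep of DNA methylation after copying, was above background on day 0 replicate 4, on 2 arrays each of days 2 and 3 and on 1 of day 5, and was not tested.

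Differences within the antibody course did not pass the test. Days 1, 3 and 5 shared a scan day, as did days 2 and 4. In limma's test no member was called on day 3 against day 1 (0.00431% of all genes were called), day 5 against day 3 (0.00863%), day 5 against day 1 (0.121%) or day 4 against day 2 (0.0992%), and at an unadjusted p under 0.05 the counts were 5, 14, 6 and 16 of 41. A positive difference was seen for 36 of 41 members on day 3 against day 1 (median 0.27), 0 on day 5 against day 3 (median -0.73), 6 on day 5 against day 1 (median -0.35) and 4 on day 4 against day 2 (median -0.75). Single arrays moved these medians: day 3 against day 1 was 0.13 without day 3 replicate 2 and 0.43 without day 3 replicate 4. Day 5 against day 3 was -1.21 without day 5 replicate 5, and day 5 against day 1 was -0.73 without that array and -0.10 without day 5 replicate 2. Day 4 against day 2 was -0.26 without day 4 replicate 1. An F-test over days 1, 3 and 5 called 0 of 41 members (0.0474% of all genes), with 9 at an unadjusted limma p under 0.05, and 3 without day 5 replicate 5. Without day 5 replicate 5, 10 members were called on day 5 against day 3, where 952 of all genes were, against 2 with it. Rrm2 had the largest difference of day 3 against day 1, 1.60 (adjusted p = 0.27). Within slides the members' median was 0.41 for day 3 against day 1 on slide 2, -0.45 for day 5 against day 3 on slide 3 and -1.37 for day 4 against day 2 on slide 4. That last value rests on day 4 replicate 1 alone, and with slide as a fixed term 10 members and 332 of all genes were called on day 4 against day 2, while the median of day 5 against day 1 was 0.06.

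Other lists of the cell cycle give the setting. Of 37 further replication genes, 17, 23, 22, 17 and 15 rose on days 1 to 5 and 0, 1, 1, 2 and 3 fell, with medians from 0.55 to 0.64. Dscc1, which loads the clamp for cohesion, Wdhd1, which ties polymerase alpha to the helicase, and Timeless, which protects the fork, changed by 2.87 ± 0.68, 2.44 ± 0.51 and 1.96 ± 0.35 on day 3 and were called on that day. At the other end Orc5, an origin recognition subunit, changed by -1.63 ± 0.33 on day 3 (adjusted p = 0.0017), while Ticrr, a cofactor of helicase activation, and Cdc7, the kinase that fires origins, changed by -0.67 ± 0.38 and -0.11 ± 0.36 with no call that day.

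Of 10 G1/S regulators, 4, 7, 7, 1 and 1 rose and 2, 1, 2, 2 and 2 fell on days 1 to 5. Cyclin A2 (Ccna2), the repressor E2f8 and cyclin E1 (Ccne1) had the largest mean change, with 3.55 ± 0.83, 2.61 ± 0.65 and 2.74 ± 0.63 on day 3. E2f7 and E2f3, which encode E2F factors, changed by -2.56 ± 0.71 and -0.82 ± 0.18 on day 3, and Cdk2, the kinase partner of both cyclins, by 0.57 ± 0.15, all called.

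Of 14 mitosis markers, 0, 12, 12, 6 and 0 rose on days 1 to 5, with medians of 0.44, 2.56, 2.80, 1.52 and 0.90. On day 1 Kif11 and Cdc20 fell, by 1.29 and 1.36 on the log2 scale (adjusted p = 0.0027 and 0.035). Cyclin B2 (Ccnb2), Cdk1 and Bub1 had the largest mean change, with 0.36 ± 0.79, 0.90 ± 0.77 and 0.85 ± 0.75 on day 1, none of them called, and 3.72 ± 0.79, 3.33 ± 0.77 and 3.24 ± 0.75 on day 3. Birc5 changed by 0.26 ± 0.59 on day 1 and 2.46 ± 0.59 on day 3. On day 1, 30 of 41 replication members and 0 of 14 mitosis markers were thus called higher, and the difference between the lists was not tested. On day 3 against day 1 the median difference was 2.37 for the mitosis markers and 0.27 for the replication members, with no gene of either list called.

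**Figure D5:**
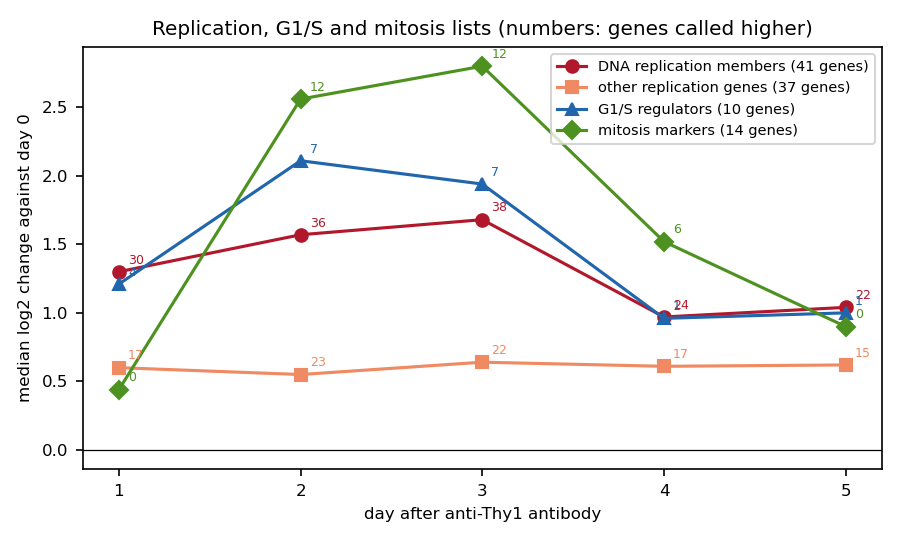
Median log2 change against day 0 (y) of 4 gene lists by day (x), with the number of genes called higher beside each point. On day 1 the replication members stand at 1.30 and the mitosis markers at 0.44, and on day 3 at 1.68 and 2.80.

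Positions on the genome were scattered. By the array files' rn4 positions, chromosome 19 carried 5 members (Cdt1, Gins2, Gins3, Mcm5 and Orc6) and chromosome 12 another 5 (Mcm7, Pole, Rfc2, Rfc3 and Rfc5). Gins2 and Gins3, both on chromosome 19, differed in their day 1 values as described above, and that difference was not tested. Of the 10 members with more than 1 probe past the filter, 5 had probes of 1 sign on all 5 days.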

How the data were processed

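Per the file headers, the authors deposited 18 scanner files made with Agilent Feature Extraction 10.7.3.1, whose processed intensity is background-subtracted and detrended within the array, with no scaling between arrays. The well-above-background flags deposited beside it are yes or no values, a unit of their own. The deposited value table holds log2 values by the authors. How it was normalized is not given in the sources used here, and it served as an alternative only within days 0, 2 and 4 and within days 1, 3 and 5, which share quantiles.

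Processed intensities were log2-transformed and the 75th percentile of each array was subtracted. Of 41012 probes, 27834 were well above background on all 3 arrays of at least 1 day and were kept, and the brightest probe stood for each gene. All 18 arrays entered 1 limma 3.58.1 fit (R 4.3.3) with a mean for each day and 1 spread per gene shared by all days. The p-values were adjusted by Benjamini-Hochberg over 23186 genes. The code was tested on simulated data. Probe positions are those of the files (rn4), and chromosomes of genes come from RefSeq (GRCr8). Figures used matplotlib 3.10.9.

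All members could be named. Values on every array are given for the members with the largest and smallest mean change of each role, all members of small roles, and Pcna. Of the other lists the 3 genes with the largest and the 3 with the smallest mean change are named. Other probes and the genes singled out beyond these were chosen after their values were seen. Members and lists were chosen with earlier results of these data known. The alternatives covered scaling, background correction, the dim-probe filter, probe averaging, the replicate block, slide, the arrays entered and leaving out each array. The number of arrays limits the precision. Promoter motifs were not analysed here.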

Additional observations from a re-analysis of the deposited data

How the results depend on the processing

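Counts are of the 41 members called. Scaled to the median, by quantiles, without the filter on dim probes, with the strict filter, with the mean of probes, or with slide as a random block, the counts against day 0 stayed within 1.5 times of those reported. Scaled to the median of the array, the counts were 37, 39, 40, 31 and 31 on days 1 to 5. Over all genes that scaling called 11213, 12927, 12555, 13684 and 12641, in either direction. The median of all genes then shifted by 0.37 to 0.49, against -0.54 to -0.36 with reference genes. With reference genes 9 members were called on day 4 and 12 on day 5, where 12850 and 10116 of 23186 genes were, in either direction. With normexp the counts were 0, 14, 16, 7 and 0 on days 1 to 5 and 6 in the F-test over 6 days. With it, Gins2 changed by -0.11 on day 2 and -0.34 on day 4, Pola2 by -0.41 on day 2 and Cdc6 by -0.02 on day 4. With the local background capped, Gins2 changed by -0.07, -0.35 and -0.01 on days 2, 4 and 5, Pola2 by -0.37 on day 2 and Cdc6 by -0.03 on day 4. The lowest mean minus local background was -65207 on day 1 replicate 1 and -60130 on day 5 replicate 5, and the cause was not tested. Slide as a fixed term gave 0 calls on days 1, 3 and 5, when 1 array links them to the controls, and 10 on day 4 against day 2. With only the arrays of the days compared, 10 were called on day 5, where 4813 of all genes were against 10263. The authors' value table gave 37 on day 2 and 23 on day 4, where 8478 and 9903 of all genes were called in either direction. It gave 0 in the comparisons within the course.

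Leaving out each array in turn gave 19 to 34 on day 1, 33 to 37 on day 2, 31 to 39 on day 3, 15 to 33 on day 4, 9 to 27 on day 5, 28 to 37 in the F-test over 6 days, 0 to 10 on day 5 against day 3 and 0 to 3 in the F-test over days 1, 3 and 5. Day 3 against day 1, day 5 against day 1 and day 4 against day 2 stayed at 0. Counts over all genes also changed with the array left out and are not listed for every array. The lowest counts came without day 0 replicate 4 on day 1, day 4 replicate 3 on day 4 and day 5 replicate 5 on day 5, and without day 5 replicate 5 both counts that started at 0 rose to 10 and 3. Replicate numbers did not pair the arrays: over 27 same-numbered pairs of arrays of different days, deviations from the day means correlated with a median of -0.02 (range -0.38 to 0.28). With the replicate block the counts were 31, 35, 35, 19 and 22, where 6372, 7937, 8727, 7817 and 9054 of all genes were called in either direction. Of the 150 calls against day 0, 12 of 30 on day 1, 5 of 36 on day 2, 7 of 38 on day 3, 9 of 24 on day 4 and 13 of 22 on day 5 ended without at least 1 array. Dim probes limit Cdc6, Cdt1, Mcm5 and Gins2, which were at background on all controls.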
